A study of Homo sapiens with 6 samples.

Results

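JAK1, JAK2 and TYK2 are kinases that sit on the inner side of cytokine receptors, STAT2, STAT3, STAT4, STAT5A and STAT5B are transcription factors that these kinases activate, and SOCS3 is an inhibitor of the same pathway. These 9 genes were taken by symbol from the deposited table of 63236 genes, where each has 1 row, and all 9 passed the filter on low counts that left 16251 genes to be tested. In this pathway a cytokine brings its receptor chains together, the bound JAKs phosphorylate the receptor and a STAT, and STAT dimers enter the nucleus and switch on target genes. SOCS proteins are products of such targets and dampen the signal. Type I interferon acts through ISGF3, a complex that holds STAT2 and IRF9, interleukin 6 and related cytokines mainly through STAT3, and GM-CSF and interleukin 3, growth factors of myeloid cells, mainly through JAK2 and STAT5. What was measured here is RNA, and neither phosphorylation nor protein was.

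The study silenced SPINK2, a serine protease inhibitor gene, in FUJIOKA, a cell line from human acute myeloid leukaemia. Bulk RNA was sequenced in 3 libraries of cells with a scrambled control shRNA (shNEG) and 3 of cells with an shRNA against SPINK2 (shSPINK2). All 6 came from the same parental line, stably transduced with a lentiviral Tet-pLKO-puro vector, in which doxycycline (1 µg/µl) turns the shRNA on. The labels describe 2 SPINK2 shRNAs and the methods 1, and which of them a library carries is not given, nor is the time on doxycycline. Neither is it stated whether the libraries of a group came from separate cultures, so the p-values measure only the spread between these libraries, which may be technical.

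The sequences that the 2 described shRNAs target are shown because they define the perturbation. Capitals mark all 21 bases of the target.

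shRNA1: TCAGGGAAGGTGGTCATAATA
shRNA2: CGCCAAACTGCTCTCAGTATA

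Each was found by exact match in annotated transcripts of SPINK2 (chromosome 4, 56809860 to 56821742, minus strand, GRCh38) and of no other gene among 252835 GENCODE transcripts, so that 0 of the 9 genes described here hold either target in full.

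The libraries held 33614480 to 34291287 reads in the tested genes, so depth was nearly equal, and the letters a to c name libraries of a group without a link to the replicate numbers of the labels. SPINK2 was counted 56, 63 and 53 times in shNEG and 7, 9 and 6 times in shSPINK2. Its level fell by 2.96 on the log2 scale (SE 0.27, edgeR adjusted p = 9.83e-11), which is the direction that the labels give. The libraries were put in groups by the sign of the deposited comparison, read as shSPINK2 over shNEG. The opposite reading would have put SPINK2 higher in its own knock-down, so its fall is no separate check of the groups. Levels are given as CPM, the reads per 1000000 reads of a library in the tested genes, after TMM scaling. The tested genes leave out the 46 genes of highest mean, which hold 11.8% of the reads. CPM is therefore higher here than it would be over the whole library. Of 9 myeloid blast markers, CEBPA, SPI1, CD33, PTPRC and MPO had mean levels of 47.1 to 981 CPM in either group. CD34 stayed under 1 and KIT was too low to be tested. Of the 8 markers tested 3 were higher (ANPEP by a log2 fold change of 0.81, CD33 by 0.35 and PTPRC by 0.32). The other calls were 2 lower (MPO at -0.40 and CD34 at -0.87), and 3 were not called (CD38, SPI1 and CEBPA). The share called, 62.5%, is near the 58.5% of all genes, of which 28.2% were higher and 30.3% lower. Their summed level was 1975 to 2084 CPM in shNEG and 2221 to 2294 in shSPINK2. Of the 6 T and NK cell markers 5 were too low to be tested and NKG7 accounted for the list (summed level 123 to 125 CPM in shNEG and 173 to 194 in shSPINK2). The summed levels of the other lists were 5.16 to 5.45 against 6.68 to 8.24 for B cells, 0.446 to 0.685 against 0.684 to 1.14 for erythroid cells and platelets, and 10.8 to 11.6 against 9.30 to 10.5 for epithelium and stroma. Their part in the results was not tested, and in bulk RNA fewer cells of a type cannot be told apart from less RNA per cell.

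Of the 9 genes, 5 were higher in shSPINK2 (JAK1, JAK2, STAT2, STAT3 and STAT5A), 1 was lower (STAT5B) and 3 did not pass the test (TYK2, STAT4 and SOCS3). Genes were called at an adjusted p under 0.05 with edgeR's quasi-likelihood test. Among all genes tested, 28.2% were called higher, 30.3% lower and 58.5% in either direction, so that a share of 66.7% called among these 9 is near the background. The groups did not overlap in CPM in 6 of the 9, beside 62.6% of all genes tested. That too is near the background. The sizes differed more than the calls. STAT2 and STAT5A rose by 66.9% and 65.3%, JAK2 by 21.9%, JAK1 by 12.0% and STAT3 by 9.79%, and STAT5B fell by 8.37%. The median of the absolute log2 fold change was 0.16 over the 9 and 0.27 over all genes tested.

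**Figure D1:**
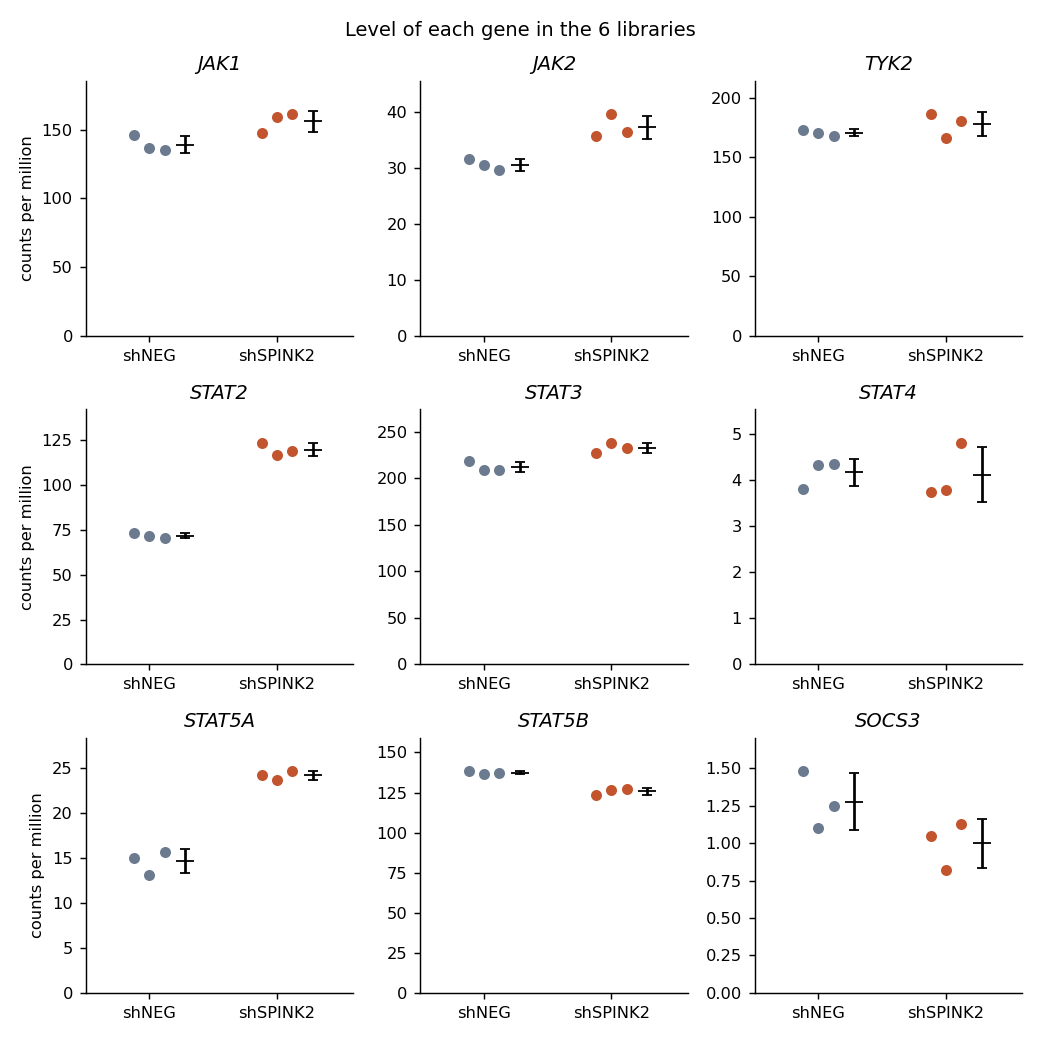
Level of each gene in CPM (vertical axis, starting at 0) in the 3 shNEG and 3 shSPINK2 libraries, 1 point per library, with the group mean and SD beside the points. The groups of STAT2 and STAT5A lie far apart, those of JAK1 nearly touch, and those of TYK2, STAT4 and SOCS3 overlap.

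Among the kinases, JAK2 had the largest fold change, while the difference in CPM was larger in JAK1. JAK2, which serves the receptors for GM-CSF, interleukin 3 and erythropoietin, lies on chromosome 9 (4984390 to 5129948, plus strand) and was measured at 31.6, 30.5 and 29.6 CPM in shNEG and at 35.7, 39.6 and 36.5 in shSPINK2. Every shSPINK2 library was above every shNEG library, with means of 30.6 ± 1.03 and 37.3 ± 2.08 (SD, n = 3). The log2 fold change was 0.29 (SE 0.05, edgeR adjusted p = 3.31e-05).

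JAK1, which pairs with most classes of cytokine receptor, is on chromosome 1 (64833223 to 65067754, minus strand). Its levels were 146, 136 and 135 CPM in shNEG and 147, 159 and 161 in shSPINK2. The groups were set apart only narrowly, since shSPINK2 library a was 1 unit above shNEG library a. The log2 fold change was 0.16 (SE 0.04, edgeR adjusted p = 0.00191). TYK2, the partner of JAK1 on type I interferon receptors (chromosome 19, 10350533 to 10380608, minus strand), stood at 173, 171 and 168 CPM in shNEG and at 186, 166 and 181 in shSPINK2. Here the groups overlapped, because shSPINK2 library b was the lowest of all 6, and the log2 fold change of 0.06 (SE 0.04) had an edgeR adjusted p of 0.24. Without that library it was 0.12 with an adjusted p of 0.00669.

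STAT2 and STAT5A had the largest fold changes of the 9 genes, and they differed from each other by less than their standard errors. STAT2, the subunit that gives ISGF3 its activating domain, is on chromosome 12 (56341597 to 56360203, minus strand) and was measured at 72.9, 71.5 and 70.3 CPM in shNEG and at 123, 116 and 119 in shSPINK2. The spread within each group was small beside the gap between them, with means of 71.6 ± 1.27 and 119 ± 3.56 (SD, n = 3). The log2 fold change was 0.74 (SE 0.04, edgeR adjusted p = 3.82e-15).

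The STAT5 pair moved in opposite directions. STAT5A was counted 507, 440 and 526 times in shNEG and 831, 809 and 827 times in shSPINK2, a log2 fold change of 0.73 (SE 0.06, edgeR adjusted p = 7.91e-11). STAT5B was counted 4668, 4589 and 4598 times in shNEG and 4243, 4333 and 4282 times in shSPINK2, and fell by 0.13 on the log2 scale (SE 0.04, edgeR adjusted p = 0.00689). In neither gene did the groups overlap, but the call of STAT5B was lost without shSPINK2 library a (log2 fold change -0.09, adjusted p = 0.0663). The reads of STAT5A came to 0.109, 0.0959 and 0.114 of those of STAT5B in shNEG and to 0.196, 0.187 and 0.193 in shSPINK2, a ratio 1.81 times as high, which does not depend on the scaling of the libraries (exact permutation test, two-sided, p = 0.1, the smallest that 3 libraries against 3 allow).

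These paralogs are also neighbours on chromosome 17. STAT5B (42199176 to 42288633, minus strand) and STAT5A (42287547 to 42311943, plus strand) are transcribed away from each other, and their annotated spans share 1087 bases. Annotated exons of both genes cover 415 bases on opposite strands, which is 6.50% of the exon bases of STAT5A and 3.43% of those of STAT5B. Whether counting used strand is not stated. Reads that fit both paralogs or both strands may have been dropped or misplaced, so the levels of this pair carry that uncertainty. Exons of JAK1 also share 647 bases (4.91%) with LINC01359 on the same strand and 10 with RAVER2 on the opposite strand. Those of STAT4 share 152 and 109 bases with long noncoding RNA genes on the opposite strand. The effect of these overlaps on the counts was not tested.

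STAT3, the main factor of interleukin 6 signalling, lies next to STAT5A with 1380 bases between the annotated genes (42313324 to 42388540, minus strand). It was measured at 218, 209 and 209 CPM in shNEG and at 228, 238 and 233 in shSPINK2. All shSPINK2 libraries were above all shNEG libraries, and the log2 fold change was 0.13 (SE 0.04, edgeR adjusted p = 0.00407). Thus the 3 STAT genes of this locus had log2 fold changes of -0.13, 0.73 and 0.13.

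STAT4 and SOCS3 were the least expressed of the 9. STAT4, a factor of interleukin 12 signalling in lymphocytes (chromosome 2, 191029576 to 191151596, minus strand), was counted 129, 146 and 146 times in shNEG and 129, 130 and 162 times in shSPINK2. The groups overlapped, and its log2 fold change was -0.02 (SE 0.12, edgeR adjusted p = 0.908). SOCS3, which inhibits JAKs at receptors of the interleukin 6 class (chromosome 17, 78356778 to 78360077, minus strand), was counted 50, 37 and 42 times in shNEG and 36, 28 and 38 times in shSPINK2. The groups overlapped through 1 library on each side, and the log2 fold change of -0.36 (SE 0.21) had an edgeR adjusted p of 0.148. Without shSPINK2 library b it was -0.22 (adjusted p = 0.435), and over all libraries left out in turn it lay between -0.46 and -0.22 and was not called.

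**Figure D2:**
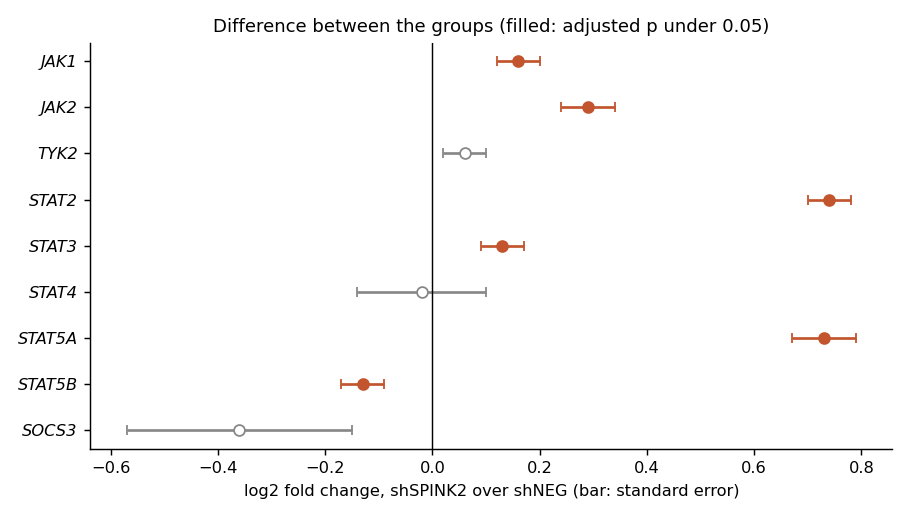
Log2 fold change of shSPINK2 over shNEG (horizontal axis) for the 9 genes, with the standard error as a bar; filled points have an adjusted p under 0.05. STAT2 and STAT5A stand at 0.74 and 0.73, and SOCS3 has the widest bar (SE 0.21).

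Levels of different genes were compared as CPM per kilobase of annotated exon. In shNEG the order was TYK2 (20.0), STAT3 (18.9), STAT5B (11.3), JAK1 (10.6), STAT2 (7.69), JAK2 (3.87), STAT5A (2.29), STAT4 (0.906) and SOCS3 (0.467). No neighbours in that order overlapped in their libraries. In shSPINK2 STAT2 had moved to 12.8 per kilobase and stood above JAK1 (11.8) and STAT5B (10.4), with its lowest library at 12.5 and the highest of JAK1 at 12.2, while TYK2 (19.5 to 21.8) and STAT3 (20.3 to 21.3) overlapped. The order rests on the length used. Per kilobase of coding sequence in shNEG, STAT3 (91.8) and STAT5B (58.1) came before TYK2 (47.9), and SOCS3 (1.63 to 2.19) overlapped with STAT4 (1.70 to 1.94). On that scale STAT2 in shSPINK2 (46.8) stayed below STAT5B (53.3), and its libraries (45.6 to 48.3) overlapped with those of JAK1 (42.5 to 46.5).

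The makeup of the 3 JAK genes and of the 5 STAT genes was then expressed as shares of their summed reads per kilobase, which need no scaling between libraries. Other genes of these families, among them STAT6 and JAK3, are not in the sums. STAT6 had mean levels of 303 CPM in shNEG and 344 in shSPINK2, beside 212 and 233 for STAT3. The shares therefore hold only among the genes summed. STAT2 made up 18.7%, 18.9% and 18.5% of the 5 STAT genes in shNEG and 27.4%, 25.6% and 26.1% in shSPINK2, a gain of 7.68 percentage points. STAT5A gained 2.21 points, from 5.55% ± 0.476 to 7.76% ± 0.144 (SD, n = 3). The share of STAT5B fell by 6.22 points (27.6% to 21.3%) and that of STAT3 fell by 3.31 points (46.0% to 42.7%). STAT3 thus rose in level and gave up share. For these 4 genes the groups did not overlap, and each exact permutation test gave p = 0.1, the smallest possible with 3 libraries against 3, so that no share can pass 0.05 by this test. STAT4 overlapped between the groups (2.20% and 1.84%).

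Among the 3 kinases the shares moved less. JAK2 went from 11.2% ± 0.102 to 12.6% ± 0.922 (SD, n = 3), without overlap (exact permutation test, two-sided, p = 0.1). JAK1 (30.6% and 31.6%, p = 0.4 by the same exact test) and TYK2 (58.1% and 55.7%, exact p = 0.2) overlapped. In shSPINK2 library b the share of TYK2 was lowest, at 53.3%, and that of JAK1 highest, at 33.0%.

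IRF9, the DNA-binding subunit of ISGF3, was also higher. It was counted 60, 76 and 49 times in shNEG and 116, 93 and 113 times in shSPINK2, a log2 fold change of 0.78 (SE 0.16, edgeR adjusted p = 9.95e-05), and the groups did not overlap. STAT6, the interleukin 4 factor, was higher by a log2 fold change of 0.18 (edgeR adjusted p = 0.000195). JAK3, the kinase of receptors with the common gamma chain, had 97 to 121 reads in shNEG and 121 to 134 in shSPINK2 and did not pass the test (log2 fold change 0.15, edgeR adjusted p = 0.296).

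Most ISGF3 target genes were higher. Of 12 genes tested 11 were higher and 1 was lower, where 28.2% and 30.3% of all genes were, and their median log2 fold change was 0.68. IFIT1, an RNA-binding antiviral protein, was counted 153, 106 and 143 times in shNEG and 459, 340 and 398 times in shSPINK2 (log2 fold change 1.55, edgeR adjusted p = 1.12e-12). RSAD2, the antiviral enzyme viperin, went from 2.25 to 4.23 CPM (0.91, adjusted p = 5.38e-07). The smallest of the 11 rises was that of MX1, an antiviral GTPase, at 59.8 CPM in shNEG and 76.5 in shSPINK2 (0.36, adjusted p = 2.18e-05). The gene that fell was USP18, which removes ISG15 from proteins and blocks JAK1 at the interferon receptor, with 552, 475 and 514 reads in shNEG and 460, 375 and 397 in shSPINK2 (-0.34, adjusted p = 0.000295).

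Of 15 STAT3 and STAT5 target genes 14 were tested, of which 5 were higher, 4 lower and 5 not called, with a median log2 fold change of 0.03. The share called, 64.3%, is near the 58.5% of all genes. PIM1, a survival kinase, was counted 540, 607 and 579 times in shNEG and 231, 212 and 212 times in shSPINK2 and fell by 1.42 on the log2 scale (edgeR adjusted p = 1.23e-15). CCND2, the G1 cyclin D2, fell by 0.59 (adjusted p = 2.7e-13). SOCS2 and FOS were higher by 0.57 (adjusted p = 1.39e-05) and 0.45 (adjusted p = 9.41e-05).

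Besides SOCS3, 7 genes (SOCS1, SOCS2, SOCS4 to SOCS7 and CISH) were tested, of which 1, SOCS2, was higher and the other 6 were not called, with a median log2 fold change of 0.00. The share called was 14.3%, beside 58.5% of all genes. CISH, a feedback inhibitor that STAT5 induces, had 387, 364 and 375 reads in shNEG and 391, 394 and 392 in shSPINK2 (0.05, edgeR adjusted p = 0.604), and was added here after its values were seen.

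Promoter sequence was searched for the letters that STATs are known to read, in the RefSeq windows of GRCh38.p14 from 250 bases before to 50 after each RefSeq start. The letters TTCNNNGAA, the GAS element, which reads the same on both strands, were present in 7.66% of all 35116 windows. GAAANNGAA, a shortened and so looser form of the usual core of the interferon response element, was present on either strand in 8.11%. None of the windows of the 9 genes held either motif, which says only that these letters are not in those windows. The windows of SOCS3 and STAT5B do not cover the GENCODE gene start given above, so for both genes the sequence at that start was not searched. PIM1 and CISH were searched as well, after their values were seen. The window of PIM1 held neither motif. CISH is shown because its window (chromosome 3, 50611725 to 50612024, minus strand) held 4 GAS motifs, given here 5′ to 3′ with the fixed letters and the spacer in capitals and with the first base counted from the start site.

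CISH at -241: TTCCTGGAA
CISH at -230: TTCTTGGAA
CISH at -129: TTCTAGGAA
CISH at -112: TTCCGGGAA

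Of 34 receptor genes that use JAKs 23 had enough reads to be tested, of which 10 were higher, 5 lower and 8 not called, with a median log2 fold change of 0.11. The share called, 65.2%, is near that of all genes (58.5%). IL13RA1 and IL3RA, chains of the interleukin 13 and interleukin 3 receptors, were each higher by 0.70 (edgeR adjusted p = 1.45e-11 and 1.87e-10). IL7R and IL15RA, chains of receptors for lymphoid cytokines, fell by 0.65 (adjusted p = 5.49e-10) and 0.48 (adjusted p = 0.000505). The 11 genes that were too low included LIFR, GHR and IL2RA, which are listed at 0.

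Of 12 other negative regulators 3 were higher, 6 lower and 3 not called, with a median log2 fold change of -0.05, where 28.2% of all genes were higher and 30.3% lower. The phosphatases PTPRC (CD45) and PTPN6 (SHP-1) were higher by 0.32 (edgeR adjusted p = 2.67e-07) and 0.29 (adjusted p = 3.23e-07), whereas PIAS3, an inhibitor of STAT3, and CBL, a ubiquitin ligase of activated kinases and receptors, fell by 0.41 (adjusted p = 4.24e-08) and 0.36 (adjusted p = 3.06e-08). Over the 6 lists, which hold 79 different genes, 67 were tested, and 31 were higher, 15 lower and 21 not called, a share called of 68.7% beside 58.5% of all genes.

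For each of the 9 genes, the gene with the most similar pattern was found as the one at the smallest Euclidean distance of centred log2 CPM over the 6 libraries, among the 9603 genes that averaged 10 CPM or more. These were GTF2E1 for JAK1 (distance 0.0443), BZW2 for JAK2 (0.0399), ZMIZ2 for TYK2 (0.0332), SUMF2 for STAT2 (0.0463), IST1 for STAT3 (0.0206), APPL2 for STAT4 (0.158), NUDT14 for STAT5A (0.0935), CUL2 for STAT5B (0.0236) and MRPS28 for SOCS3 (0.207). The distances of STAT4 and SOCS3, the genes with the fewest reads, were the largest.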

How the data were processed

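RNA of 6 FUJIOKA libraries was made into mRNA libraries and sequenced as paired reads. After quality control in FastQC, the authors used STAR (2.7.11 in the submitters' processing notes) for alignment to GRCh38, featureCounts for counting and DESeq2 (1.40.0) for the comparison. The annotation release and the strand setting are not given in the sources used here. The deposited table holds 1 signal per gene, which is the average of the 6 libraries' counts after the authors divided them by size factors, and no column per library. Its remaining columns are the authors' comparison of shSPINK2 with shNEG, namely a log2 fold change with its standard error, a test statistic, and raw and adjusted p-values, as the authors deposited them. None of those values is printed or compared here.

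Whole reads per library were recovered from the mean. It is a sum of 6 whole numbers, each divided by 6 times its size factor. The 6 resulting weights were first read from genes with 1 read and then refined by least squares over solved genes. Because many sets of reads can give 1 mean, the deposited log2 fold change and standard error served as constraints. Sets were searched only within a bounded distance of the group means that the mean and fold change imply. A gene was kept only where exactly 1 set met the mean within rounding and the fold change within 5e-14. This solved 5793 of 6066 genes with a mean from 1 to 6 and 17478 of 17483 with a mean from 6 to 60000, in all 23271 genes that hold 87.8% of the reads; 46 genes above that mean (11.8% of the reads) and all genes below a mean of 1 were left out. So the reads are a reconstruction that uses the authors' fold changes, and the tests below are not independent of them. The direction of the comparison and so the group of each library follow from the sign of those fold changes. Letters a to c order the libraries of a group by falling size factor.

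Reads were tested with edgeR 4.0.16 (quasi-likelihood, TMM, filterByExpr, group as the only term), with Benjamini-Hochberg adjustment over 16251 genes and calls at an adjusted p under 0.05. A standard error is the log2 fold change over the root of F. Alternatives were DESeq2 1.42.0, limma 3.58.1, other scaling, filters and thresholds, and each library left out. Recovery and tests were tested on simulated data. Exon and coding lengths and positions are from GENCODE 44, and promoters from RefSeq. Shares were compared by exact permutation tests. Named list genes are the 2 with the largest and the 2 with the smallest log2 fold change among those called in each list, with STAT6, JAK3 and IRF9 always, and for each of the 9 genes the 1 of most similar pattern. The 9 genes and the lists were chosen with earlier results of these data known, and 1 gene of a list is not reported here.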

Additional observations from a re-analysis of the deposited data

How the results depend on the processing

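The calls of the 9 genes were the same with the authors' size factors, without a filter, with DESeq2 and with limma. They were also the same at an adjusted p under 0.01. Under these settings every list count was within 1.5 times its value above. Centring on the median of all genes shifted the fold changes and kept the p-values, so it could not test the calls. The study's added threshold, an absolute log2 fold change over 1, leaves 0 genes higher and 0 lower of the 9, so that STAT2 (0.74), STAT5A (0.73), JAK2 (0.29), JAK1 (0.16), STAT3 (0.13) and STAT5B (-0.13) no longer pass. Of the lists it leaves 1 gene higher and 1 lower in all, with 1 higher and 0 lower among ISGF3 targets, 0 higher and 1 lower among STAT3 and STAT5 targets and 0 in each direction elsewhere. With each library left out in turn, the count of genes lower was 0 to 1, and the log2 fold change was -0.13 to -0.09 for STAT5B (call lost without shSPINK2 library a), 0.05 to 0.12 for TYK2 (call gained without shSPINK2 library b) -0.46 to -0.22 for SOCS3 and -0.13 to 0.07 for STAT4, the last 2 never called. Leaving libraries out for the lists was chosen after seeing the data and gave 28 to 32 genes higher and 13 to 16 lower. With coding length the differences in share were 1.10 points for JAK2, 6.91 for STAT2, -2.01 for STAT3, -0.138 for STAT4 and 1.47 for STAT5A. No paired analysis was possible because the recovered libraries carry no replicate number. SOCS3 had the fewest reads, 28 to 50 per library.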
